A study of Rattus norvegicus with 9 samples.

Results

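Genes of the NF-kB pathway and the inflammatory cytokines joined to it were followed in rat liver 24 h after total-body irradiation (TBI), with and without pretreatment with Hong Shan Capsule (HSC), a herbal preparation. There were 10 member genes, Tnf, Il1b, Il6, Tnfrsf1a, Rela, Nfkb1, Nfkb2, Relb, Nfkbia and Tnfaip3, of 13438 genes with a named probe on the array. They were found by matching the RefSeq accession of each probe to the gene's symbol or synonyms. This gave 7 member genes with 10 probes, while Nfkb1, Relb and Tnfaip3 had no matching probe and were not analysed here. A probe was tested when some group had it well above background in all 3 rats, which 8 probes of 5 member genes passed: Il1b, Tnfrsf1a, Rela, Nfkb2 and Nfkbia.

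The 9 samples were livers of male Wistar rats, 1 one-colour Agilent rat array per rat, with 3 rats in each of 3 groups. The control rats were not irradiated and received no HSC, the TBI rats received 6.5 Gy of 60Co gamma rays at 2 Gy/min, and the HSC + TBI rats were given HSC by stomach tube on 3 days before the same exposure. The HSC dose is 30 mg/kg a day in the sample labels and 10 g/kg a day in the series text, and it entered no calculation. The age of the rats is not stated, and HSC without irradiation was not analysed here, so an effect of HSC itself and an effect on the response to radiation cannot be told apart.

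NF-kB is a family of transcription factors that wait in the cytoplasm bound to inhibitor proteins of the IkB family. Cytokines such as TNF and interleukin-1 beta, or bacterial products, act through receptors and a kinase complex that marks the inhibitor for destruction, and the freed dimers enter the nucleus and switch on cytokine, chemokine and adhesion genes as well as genes for their own inhibitors. In the liver, Kupffer cells, the resident macrophages, are a main source of these cytokines, and hepatocytes answer them with the acute phase proteins.

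The promoters are shown because NF-kB dimers bind a short DNA motif, the kappaB consensus, and because several member genes are known to be switched on by NF-kB. The 250 bases before the annotated start were taken from RefSeq on the GRCr8 build, which held 9 of the 10 member promoters, and both strands were searched for the kappaB consensus. Capitals mark a match, and each sequence is written 5′ to 3′ on the strand of the gene. Among the 5 tested member genes, Il1b and Nfkbia had the largest differences between groups on the brightest probe, Nfkb2 held the only called member probe, and Il6 held a match but lay above background on no array.
Il1b, chr3:137036582-137036831, minus strand: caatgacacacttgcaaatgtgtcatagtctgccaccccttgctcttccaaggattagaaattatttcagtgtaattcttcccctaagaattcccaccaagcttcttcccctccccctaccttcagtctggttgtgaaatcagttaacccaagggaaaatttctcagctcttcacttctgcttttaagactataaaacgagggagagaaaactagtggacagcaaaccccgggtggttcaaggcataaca
Nfkbia, chr6:78597073-78597322, minus strand: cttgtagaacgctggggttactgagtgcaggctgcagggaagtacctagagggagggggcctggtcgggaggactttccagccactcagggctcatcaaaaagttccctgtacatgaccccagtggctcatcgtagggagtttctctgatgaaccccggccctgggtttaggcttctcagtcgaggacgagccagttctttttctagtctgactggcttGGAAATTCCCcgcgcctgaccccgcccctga
Nfkb2, chr1:255108124-255108373, plus strand: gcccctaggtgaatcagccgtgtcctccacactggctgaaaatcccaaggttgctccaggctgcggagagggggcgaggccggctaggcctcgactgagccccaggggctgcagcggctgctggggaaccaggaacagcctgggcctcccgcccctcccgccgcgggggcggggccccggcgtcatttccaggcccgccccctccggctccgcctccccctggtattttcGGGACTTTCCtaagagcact
Il6, chr4:5894576-5894825, minus strand: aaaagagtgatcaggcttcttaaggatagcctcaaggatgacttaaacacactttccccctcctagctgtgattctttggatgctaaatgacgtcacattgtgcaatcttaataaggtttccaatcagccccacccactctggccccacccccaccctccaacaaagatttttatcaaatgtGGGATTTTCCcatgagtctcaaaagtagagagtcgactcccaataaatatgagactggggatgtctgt

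In the Nfkbia promoter the match lay 31 to 22 bases before the start on the opposite strand, where it reads GGGAATTTCC. In Nfkb2 it lay 20 to 11 bases before the start and read GGGACTTTCC, and in Il6 it lay 68 to 59 bases before the start and read GGGATTTTCC. The promoter of Tnfaip3 held 4 matches counted over both strands, of which 1 pair covered the same bases. The promoters of Tnf, Il1b, Tnfrsf1a, Rela and Nfkb1 held no match in this window. A match was thus found in 4 of the 9 member promoters, and in 6.33% of 33469 promoters of the same length in the table. The TATA box hexamer TATAAA, searched on both strands, was found in the promoters of Tnf and Il1b, 2 of the 9, and in 12.93% of the 33469 promoters. These matches describe the letters and were not tested as binding sites.

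All signals below are quantile-normalized log2 values of the processed spot intensity, so a difference of 1 is a 2-fold difference. A gene was read on its brightest probe, and a difference was called at a limma adjusted p under 0.05 together with a fold change of at least 1.5. Between 56.6% and 59.3% of probes lay above background in control rats, against 63.6% to 69.5% after TBI and 58.7% to 60.5% in rats given HSC first. The 3 control arrays shared 1 slide, the 3 TBI arrays another, and the HSC + TBI arrays were on the remaining 2 of 4 slides, so slide and group cannot be told apart. The labels number 3 replicates a group, taken here as 3 rats, and the comparisons of both irradiated groups with control share the same 3 control rats.

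The clearest pattern among the member genes was a high signal of Il1b and Nfkbia in 2 of the 3 TBI rats. No member gene was called on its brightest probe in any comparison: 0 of 5 for TBI against control, where 7.25% of the 25369 tested probes were called, 0 of 5 for HSC + TBI against control, where 3.23% were called, and 0 of 5 for HSC + TBI against TBI, where 0.796% were called. At an unadjusted limma p under 0.05 the member genes numbered 2, 1 and 3 of 5 in the same order, beside 25.5%, 19.6% and 16.3% of all tested probes. The 1 call among all 8 tested member probes was on the dimmer probe of Nfkb2, which was lower in HSC + TBI than in TBI. With the slide as a random block, whose estimated correlation within slides was -0.33, Il1b (limma adjusted p = 0.00165) and Nfkbia (limma adjusted p = 0.00166) were called higher in TBI than in control, and Il1b (limma adjusted p = 0.00861) was called lower in HSC + TBI than in TBI. Calls rose throughout under that block, to 17.8% of all tested probes in TBI against control and 8.89% in HSC + TBI against TBI. No slide held arrays of more than 1 group, so the block cannot separate a slide difference from a group difference. No conclusion is drawn from its calls.

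The groups did not overlap for 1 of 5 member genes in TBI against control, Nfkbia, against 28.9% of all tested probes. In HSC + TBI against control the 1 gene was Nfkb2, against 31.7% of tested probes, and in HSC + TBI against TBI the 2 genes were Il1b and Nfkb2, against 21.4%. The median log2 difference of the 5 member genes was 0.18 in TBI against control, where that of all tested probes was -0.01. It was -0.02 in HSC + TBI against control beside 0.05 for all probes, and -0.40 in HSC + TBI against TBI beside 0.06.

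**Figure D1:**
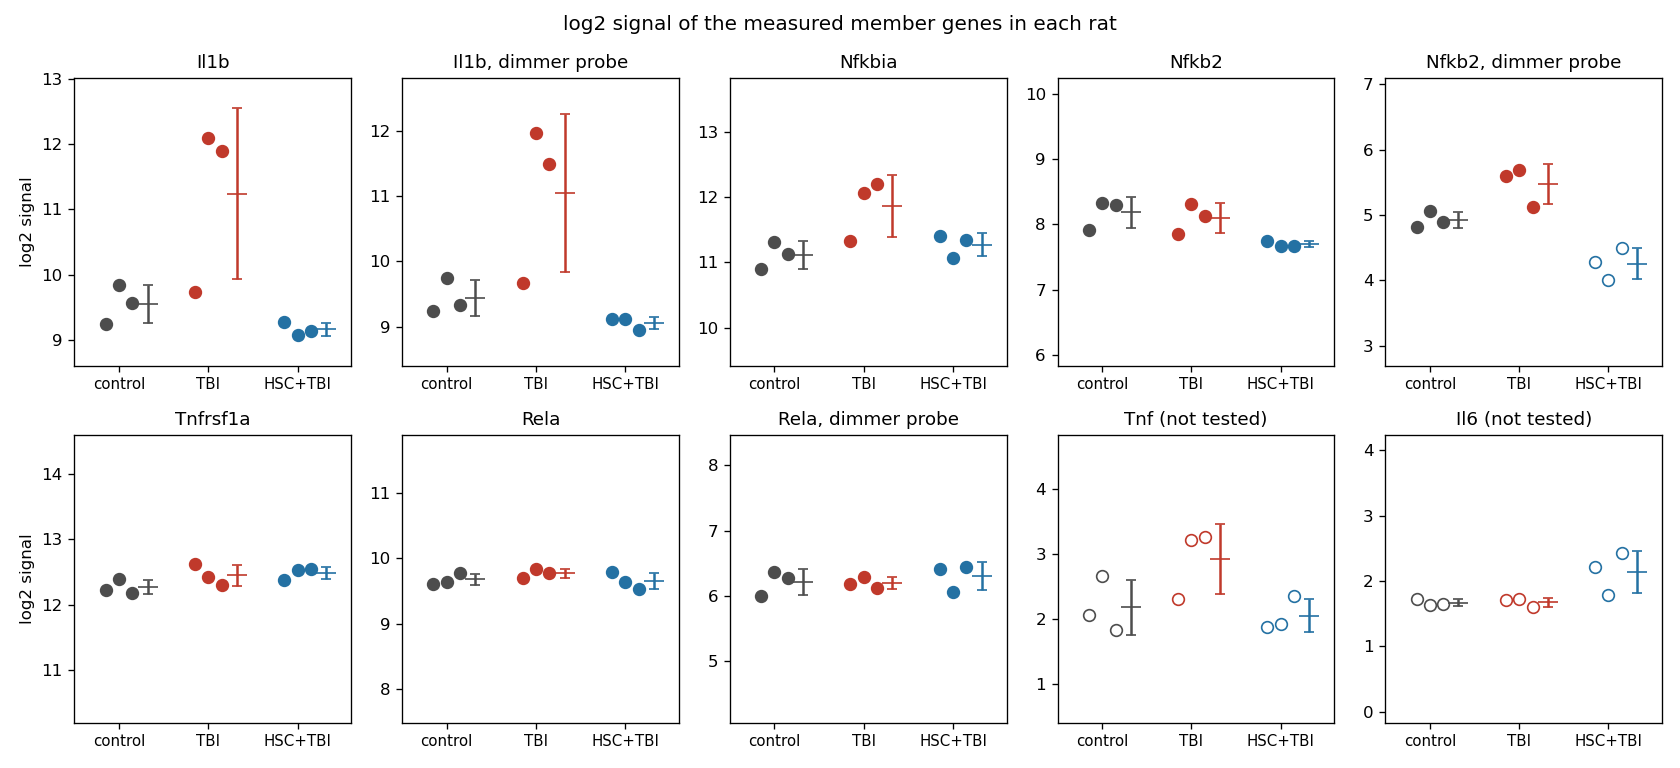
The log2 signal of each member probe (vertical axis, the same span in every panel) in the control, TBI and HSC + TBI rats, 1 point per rat, with the group mean and SD (n = 3) to the right of each group. Open points mark a group in which the probe was not above background on all 3 arrays. The Il1b and Nfkbia points of TBI 2 and TBI 3 stand above those of every other rat.

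Among the ligands, Il1b encodes interleukin-1 beta, a cytokine that macrophages make in response to infection and injury and that itself activates NF-kB. The log2 signal of Il1b was 9.25, 9.83 and 9.56 in the control rats, 9.73, 12.09 and 11.90 in the TBI rats, and 9.27, 9.07 and 9.13 in the HSC + TBI rats. TBI 2 and TBI 3 were thus 5.84 and 5.10 times the control mean, while TBI 1, at 1.13 times the control mean, lay inside the control range. The HSC + TBI rats lay close together, and the highest of them was just above the lowest control rat.

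The mean of Il1b was 9.55 ± 0.29 (SD, n = 3) in the control rats, 11.24 ± 1.31 after TBI and 9.16 ± 0.10 with HSC given first. Il1b was 3.23-fold higher in TBI than in control, a log2 difference of 1.69 (SE 0.54, 95% interval 0.46 to 2.92, limma adjusted p = 0.0925), which did not pass the threshold. In HSC + TBI it was 4.23-fold lower than in TBI, a log2 difference of -2.08 (95% interval -3.31 to -0.85, limma adjusted p = 0.126), with every HSC + TBI rat below every TBI rat and no call. Against control the HSC + TBI rats differed by -0.39 (95% interval -1.62 to 0.84, limma adjusted p = 0.745).

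The second probe of Il1b gave the same picture. Its log2 signal was 9.24 to 9.74 in control rats, 9.68, 11.96 and 11.49 in TBI 1, 2 and 3, and 8.95 to 9.12 in HSC + TBI rats. Its log2 difference was 1.60 (limma adjusted p = 0.0859) for TBI against control and -1.98 (limma adjusted p = 0.117) for HSC + TBI against TBI.

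Among the rats left out in turn, only TBI 1 changed whether Il1b was called. Without TBI 1, Il1b was called higher in TBI than in control, by a log2 difference of 2.45 (limma adjusted p = 0.00116), and lower in HSC + TBI than in TBI, by -2.84 (limma adjusted p = 0.000809). Leaving out TBI 1, the lowest TBI rat, raised the TBI mean, so no conclusion is drawn from these calls. Without TBI 1, 7.13% of all tested probes were called in TBI against control and 3.74% in HSC + TBI against TBI. With any other rat left out, Il1b was called in no comparison, and no label sets TBI 1 apart from the other TBI rats.

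Tnf and Il6, the other ligands, were too dim to test. Tnf, the gene of tumour necrosis factor, had log2 signals of 2.06, 2.65 and 1.84 in control, 2.30, 3.22 and 3.26 in TBI, and 1.89, 1.93 and 2.35 in HSC + TBI. Only 2 of the 9 arrays had Tnf above background, both of the TBI group, so no fold change is given. The lowest signal above background was 2.81 on TBI 2 and 2.51 on TBI 3. It was at least 3.68 on the control arrays and at least 3.56 on the HSC + TBI arrays. A signal of 3.26 could thus not have been above background in those groups, and the order of the rats has no reading as expression.

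Il6, the gene of interleukin-6, the main inducer of the acute phase proteins of hepatocytes, lay above background on 0 of 9 arrays. Its log2 signals were 1.63 to 1.73 in control rats, 1.60 to 1.72 after TBI and 1.78 to 2.42 in HSC + TBI rats. At these intensities the order of the groups has no reading as expression.

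Tnfrsf1a encodes the receptor through which TNF acts on most cells, and it was a bright gene on every array. Its log2 signal was 12.23, 12.40 and 12.19 in control, 12.63, 12.42 and 12.30 in TBI, and 12.38, 12.54 and 12.55 in HSC + TBI. All 3 groups overlapped. The log2 difference was 0.18 (95% interval -0.11 to 0.46, limma adjusted p = 0.419) for TBI against control, 0.21 (95% interval -0.07 to 0.50, limma adjusted p = 0.392) for HSC + TBI against control, and 0.04 (95% interval -0.25 to 0.33, limma adjusted p = 0.904) for HSC + TBI against TBI. None of these intervals reached a 1.5-fold change.

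Rela encodes p65, the subunit that carries the activation domain of the most common NF-kB dimer. Its log2 signal was 9.61, 9.64 and 9.77 in control, 9.71, 9.84 and 9.77 in TBI, and 9.79, 9.64 and 9.53 in HSC + TBI, with every group overlapping the others. The log2 difference was 0.10 (95% interval -0.16 to 0.35, limma adjusted p = 0.632) for TBI against control and -0.12 (95% interval -0.38 to 0.14, limma adjusted p = 0.632) for HSC + TBI against TBI. The dimmer probe of Rela spanned 5.99 to 6.45 over the 9 rats, and its log2 differences were -0.01 for TBI against control, 0.11 for HSC + TBI against TBI and 0.09 for HSC + TBI against control.

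Nfkb2 encodes p100, the precursor of p52, which works with RelB in the noncanonical arm of the pathway. On its brighter probe the log2 signal was 7.91, 8.33 and 8.30 in control, 7.85, 8.32 and 8.13 in TBI, and 7.75, 7.67 and 7.67 in HSC + TBI. The 3 HSC + TBI rats lay below every rat of the other groups, with TBI 1 the nearest above them. The log2 difference was -0.08 (limma adjusted p = 0.787) for TBI against control, -0.48 (95% interval -0.85 to -0.12, limma adjusted p = 0.145) for HSC + TBI against control and -0.40 (95% interval -0.77 to -0.04, limma adjusted p = 0.265) for HSC + TBI against TBI, and none passed the threshold.

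The dimmer probe of Nfkb2 gave log2 signals of 4.81, 5.06 and 4.90 in control, 5.60, 5.69 and 5.12 in TBI, and 4.28, 4.0 and 4.49 in HSC + TBI, where it lay above background on 2 of 3 arrays. On this probe the 3 groups did not overlap. It was 2.32-fold lower in HSC + TBI than in TBI, a log2 difference of -1.21 (SE 0.19, 95% interval -1.64 to -0.79, limma adjusted p = 0.0355), which was called. The other differences of this probe were 0.55 (limma adjusted p = 0.112) for TBI against control and -0.67 (limma adjusted p = 0.0953) for HSC + TBI against control.

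Both Nfkb2 probes were thus lower in HSC + TBI than in either other group, but they had opposite signs in TBI against control. The call on the dimmer probe did not pass without any 1 of the 3 control rats, without TBI 2, or without any 1 of the 3 HSC + TBI rats, where the log2 difference ran from -1.33 to -1.09. Without TBI 1 or TBI 3 it was called. With normexp background correction the difference of this dim probe shrank to -0.22 (limma adjusted p = 0.192). With the mean of both probes, the log2 difference of Nfkb2 was -0.81 and not called (limma adjusted p = 0.0533).

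Nfkbia encodes IkB-alpha, the inhibitor that NF-kB itself induces and that returns the dimers to the cytoplasm, and its mRNA is often used as a readout of the pathway. Its log2 signal was 10.90, 11.32 and 11.13 in control, 11.33, 12.07 and 12.20 in TBI, and 11.41, 11.07 and 11.34 in HSC + TBI. As for Il1b, TBI 2 and TBI 3 were high, at 1.94 and 2.12 times the control mean, and TBI 1, at 1.16 times, lay beside the highest control rat. The HSC + TBI rats overlapped both other groups.

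Nfkbia was 1.68-fold higher in TBI than in control, a log2 difference of 0.75 (SE 0.23, 95% interval 0.22 to 1.28, limma adjusted p = 0.0873), and the groups did not overlap, but the difference was not called. The log2 difference was -0.59 (95% interval -1.13 to -0.06, limma adjusted p = 0.261) for HSC + TBI against TBI and 0.16 (95% interval -0.38 to 0.69, limma adjusted p = 0.764) for HSC + TBI against control. Without TBI 1, Nfkbia was called in TBI against control at 1.02 (limma adjusted p = 0.0158) and in HSC + TBI against TBI at -0.86 (limma adjusted p = 0.0386). With any other rat left out, it was called in no comparison. TBI 1 was again the lowest TBI rat, and no conclusion is drawn from the calls without it.

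**Figure D2:**
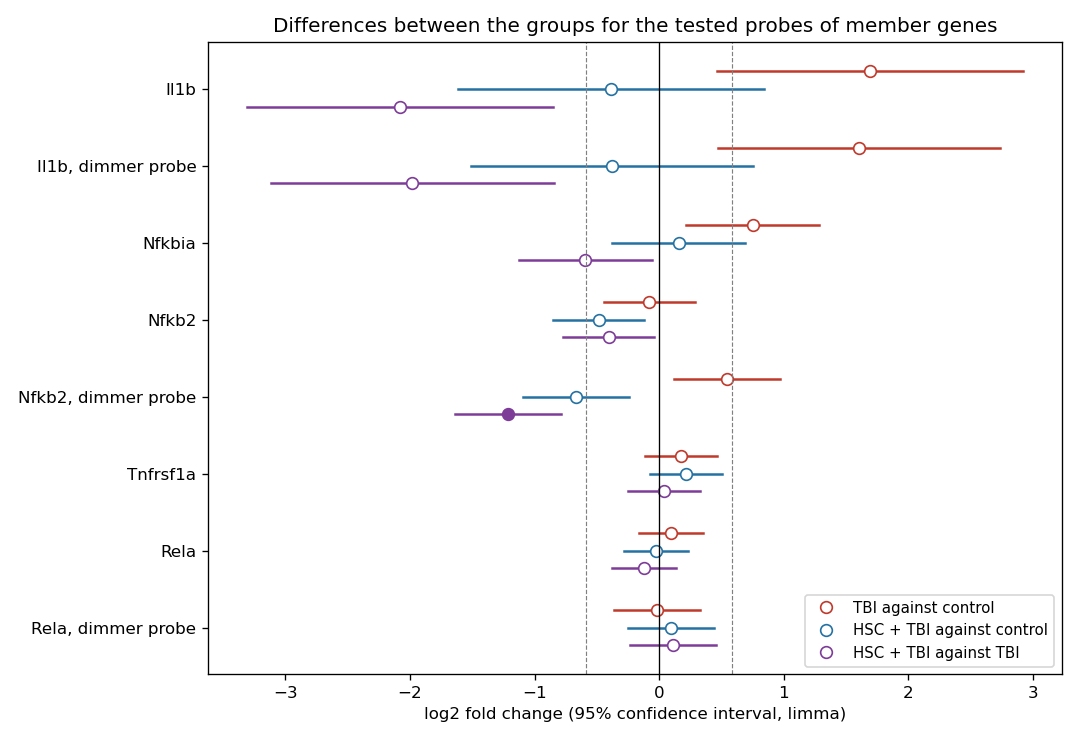
Log2 fold change (horizontal axis) with its 95% interval from limma for the 8 tested member probes in the 3 comparisons. Filled points passed the adjusted p and fold thresholds, and dashed lines mark a fold change of 1.5. The only filled point is the dimmer probe of Nfkb2 in HSC + TBI against TBI, at -1.21, and the widest intervals belong to Il1b.

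In order of its spread over the 9 rats, Il1b varied most among the tested member genes, with a root mean square deviation of 1.10 log2 units from its mean, followed by Nfkbia at 0.41. The named genes whose 9 values, each centred on its own mean, lay nearest to those of these members were looked up after the members' values had been seen, since the rule for naming them had been met by no member. Nearest to Il1b among 9598 genes were RT1-DMa, an MHC class II chaperone, with a root mean square difference of 0.187 log2 units, Hpgd, which inactivates prostaglandins, at 0.236, and Neurl3 at 0.261, where the median gene differed by 1.14. Nearest to Nfkbia were Fcgr2a, an Fc receptor, at 0.127, Plcb2, a phospholipase C, at 0.137, and Cyp4a1, a fatty acid hydroxylase of hepatocytes, at 0.138, where the median gene differed by 0.484.

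Because whole liver was measured, fewer cells of a type and less RNA per cell cannot be told apart. All 8 hepatocyte genes lay above background on every array, their summed normalized signal on the linear scale was 1243710 to 1481840 over the 9 rats, and none was called in any comparison. Of the 10 Kupffer cell and macrophage genes, 9 were matched, and all 9 lay above background on every array. Their summed linear signal was 89368, 139587 and 115575 in the control rats, 93718, 175109 and 140661 in the TBI rats, and 65593, 70932 and 70919 in the HSC + TBI rats.

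The macrophage sums shared part of the order of the rats with Il1b. TBI 2 had the highest sum of the 9 rats and TBI 3 one just above that of control 2, TBI 1 lay within the control range, and all HSC + TBI rats lay below all others. Single macrophage genes differed among themselves in TBI 3, where Il1b lay 2.35 log2 units above the control mean. There Cd163, a scavenger receptor, lay at -0.38 and Clec4f at 0.086. Above them lay Adgre1 at 1.65, Csf1r at 0.98, Cd68 at 0.57, Marco at 0.54, C1qb at 0.44, C1qa at 0.35 and Vsig4 at 0.33. Adgre1 and Csf1r were near 0 in TBI 1, at -0.009 and -0.08, and high in TBI 2, at 1.49 and 1.32. The median log2 difference of the 9 genes was 0.28 in TBI against control, -0.57 in HSC + TBI against control and -0.96 in HSC + TBI against TBI. In the last of these all 9 had a negative sign, where 41.3% of all tested probes did, and none of the 9 was called in any comparison. Examples are Cd68, a lysosomal macrophage protein, at -1.10 (limma adjusted p = 0.108), and Clec4f, a Kupffer cell receptor, at -0.86 (limma adjusted p = 0.125). The part of the macrophage signal in the Il1b, Nfkbia and Nfkb2 values was not tested.

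Each of the other leukocyte lists was summed in the same way. The summed signal of 7 neutrophil genes was 836 to 985 in control rats, 505 to 938 after TBI and 317 to 416 in HSC + TBI rats, and the defining genes Elane, Cxcr2 and Csf3r were below the background filter. That of 6 natural killer cell genes was 1077 to 2346 in control rats, 635 to 2030 after TBI and 393 to 658 in HSC + TBI rats. That of 8 T cell genes was 601 to 828, 339 to 522 and 325 to 425 in the same order, and that of 4 B cell genes was 185 to 228, 163 to 290 and 140 to 143. These sums are carried by the brightest probes and hid calls on single genes. Cd3g, a chain of the T cell receptor complex, was called lower than in control in TBI (limma adjusted p = 0.000685, above background on 2 of 3 arrays) and in HSC + TBI, by at least 11.4-fold (limma adjusted p = 0.000297). Cd2, a T cell adhesion receptor, was at least 5.13-fold lower in TBI than in control (limma adjusted p = 0.00123). It was also called higher in HSC + TBI than in TBI (limma adjusted p = 0.0306). Only 1 of 3 HSC + TBI arrays and 0 of 3 TBI arrays had Cd2 above background, so no fold change is given for that comparison. Of the 6 tested T cell genes 4 had a negative sign there, among them Cd4 at -0.84. After TBI 4 of the 6 were below control on average. Cd4, at 0.71 (limma adjusted p = 0.26), and Lck, at 0.55 (limma adjusted p = 0.24), were above it. Cd79b, a chain of the B cell receptor, was at least 4.97-fold lower in TBI (limma adjusted p = 0.00317) and at least 2.90-fold lower in HSC + TBI (limma adjusted p = 0.0026) than in control. Cd22, another B cell gene, was above control after TBI by 0.55 on the log2 scale (limma adjusted p = 0.089), without overlap and not called. Fcnb, a ficolin of neutrophils and monocytes, was 2.81-fold lower in TBI (limma adjusted p = 0.00556) and 4.03-fold lower in HSC + TBI (limma adjusted p = 0.00214) than in control. In each such bound the dim group was set, on each array, at the higher of its own signal and the lowest signal well above background. The part of these cells in the member values was not tested. The 5 endothelial genes summed to 12614 to 15532 in control rats, 16628 to 20480 after TBI and 15407 to 17107 in HSC + TBI rats. This sum was carried mostly by Kdr, at 0.33 in TBI against control (limma adjusted p = 0.206) with overlapping groups. In that comparison 3 of the 5 genes were higher and 2 lower, Cdh5 at -0.27 and Tek at -0.23. None of the 5 was called in any comparison.

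**Figure D3:**
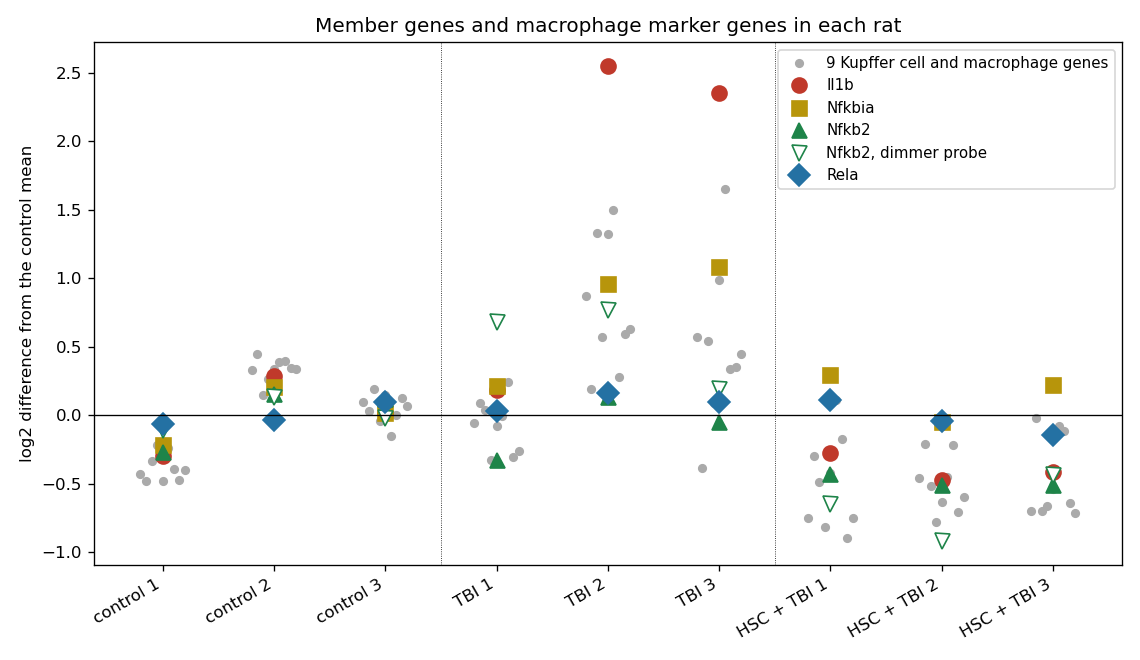
Log2 difference of each rat from the control mean (vertical axis) for Il1b, Nfkbia, Nfkb2 on both probes, Rela, and the 9 measured Kupffer cell and macrophage genes (grey). TBI 2 and TBI 3 are high for Il1b and Nfkbia, and TBI 1 is near 0 for Il1b. Most macrophage genes lie above 0 in TBI 2 and TBI 3, but in TBI 3 they spread from -0.38 (Cd163) to 1.65 (Adgre1). Most macrophage genes are below 0 in the 3 HSC + TBI rats, while Rela stays near 0 in all 9.

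Around the members, 106 further genes of the pathway and its responses were followed in 7 lists, of which 95 were matched to a probe and 81 were tested, with 1 gene, Cebpd, in 2 of the lists. In TBI against control 15 of the 81 were called, 11 higher and 4 lower, a share of 18.5% beside 7.25% of all tested probes. Of these 15, 6 were glucocorticoid-induced genes and 4 were IL-6 response genes, shares of 50% and 30.8% of those lists. The share was 11.8% for receptors and adaptors, 11.1% for other cytokines and 10.5% for NF-kB target genes. No kinase and no further Rel protein or inhibitor was among them. In HSC + TBI against control 6 of the 81 were called, 2 higher and 4 lower, a share of 7.41% beside 3.23%. In HSC + TBI against TBI 2 of the 81 were called, 1 higher and 1 lower, a share of 2.47% beside 0.796%. The lists were chosen with earlier results of these data known, so their shares describe them and are no independent test.

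Of the receptors and adaptors 17 genes were tested, and in TBI against control 1 rose and 1 fell, a share of 11.8% beside 7.25% of all tested probes. Tlr2, a receptor for bacterial lipoproteins, rose by a log2 difference of 1.68 (limma adjusted p = 0.0396), with 9.01, 9.32 and 8.82 in control, 9.70, 11.56 and 10.92 in TBI, and 8.52, 8.85 and 8.69 in HSC + TBI. The Tlr2 signal was again highest in TBI 2 and TBI 3, and its call was lost with the omission of any rat other than TBI 1. Il6r, the ligand-binding receptor of interleukin-6, fell by 0.78 on the log2 scale (limma adjusted p = 0.0137), with 11.03, 11.26 and 11.10 in control and 10.12, 10.48 and 10.43 in TBI, and stayed called whichever rat was left out. No receptor or adaptor was called in either HSC + TBI comparison, and the HSC + TBI values of Il6r, 10.72 to 10.98, lay between the groups.

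None of the 7 tested kinase genes and none of the 5 tested further Rel proteins and inhibitors was called in any comparison. Chuk and Ikbkb, the catalytic kinases of the complex that marks IkB, had log2 differences of 0.16 and -0.14 in TBI against control and of -0.03 and 0.07 in HSC + TBI against TBI. Nfkbie, the gene of IkB-epsilon, had -0.84 (limma adjusted p = 0.0801) in HSC + TBI against control and -0.80 (limma adjusted p = 0.143) in HSC + TBI against TBI. Its HSC + TBI values, 6.07, 6.33 and 6.08, lay below all control values, 6.68 to 7.24, and all TBI values, 6.51 to 7.27.

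Of 27 NF-kB target genes 19 were tested. In TBI against control 2 rose and none fell, a share of 10.5% beside 7.25% of all tested probes. They were Cxcl2, a chemokine that draws neutrophils, by 1.99 (limma adjusted p = 0.0214), and Gadd45b, a stress-response gene, by 1.54 (limma adjusted p = 0.0027). The Cxcl2 signal was 4.23 to 5.67 in control and 6.37, 6.95 and 6.93 in TBI, and that of Gadd45b was 9.56 to 9.91 in control and 11.06 to 11.56 in TBI. For both genes TBI 1 lay above every control rat, unlike for Il1b. The call of Cxcl2 was lost without control 1, control 3 or TBI 2, and that of Gadd45b held whichever rat was left out.

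In HSC + TBI against control, Ccl2, Cxcl10 and Bcl2a1 fell and Gadd45b rose by 0.82 (limma adjusted p = 0.0488). These 4 calls were a share of 21.1% of the tested target genes, beside 3.23% of all tested probes. Ccl2, the chemokine that draws monocytes, fell by 1.80 on the log2 scale (limma adjusted p = 0.00194), with 7.10, 7.57 and 7.21 in control, 6.78, 6.86 and 6.72 in TBI, and 5.16, 5.55 and 5.77 in HSC + TBI. The 3 groups of Ccl2 did not overlap, and its call against control held whichever rat was left out. Cxcl10, an interferon-induced chemokine, fell by 3.06 (limma adjusted p = 0.0124), with 10.63, 11.27 and 10.88 in control, 8.28, 10.39 and 9.32 in TBI, and 7.40, 8.02 and 8.19 in HSC + TBI. Its call was lost without control 2, control 3 or HSC + TBI 1. Bcl2a1, a survival gene of leukocytes, fell by 1.85 (limma adjusted p = 0.0458) and was called only without TBI 1 or TBI 3 when a rat was left out.

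In HSC + TBI against TBI the only called target gene was Ccl2, a share of 5.26% beside 0.796% of all tested probes. Ccl2 fell by 1.29 (limma adjusted p = 0.027), a call lost without control 3, TBI 2, HSC + TBI 1 or HSC + TBI 2. The median log2 difference of the 19 target genes was -0.67 beside 0.06 for all tested probes, and 18 of the 19 had a negative sign, where 41.3% of all tested probes did. In TBI against control the median was -0.04, and 11 of 19 were negative beside 50.7% of all probes. The macrophage sums given above were lower in the same HSC + TBI rats, and their part in the target gene values was not tested.

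Of 18 other inflammatory cytokine genes 9 were tested. In TBI against control 1 was called, a share of 11.1% beside 7.25% of all tested probes. In HSC + TBI against control 1 was called, a share of 11.1% beside 3.23%. Il1a, the gene of interleukin-1 alpha, rose by 0.91 in TBI against control (limma adjusted p = 0.0358), with 6.86, 7.57 and 6.74 in control and 8.13, 7.92 and 7.85 in TBI. In contrast to Il1b, the Il1a signal of TBI 1 was the highest of the 9 rats, and that of the HSC + TBI rats, 7.61 to 7.85, lay above all control values. The call of Il1a was kept only without control 2 or TBI 3 when a rat was left out. Ltb, the gene of lymphotoxin beta, fell by 1.60 in HSC + TBI against control (limma adjusted p = 0.041). No gene of this list was called in HSC + TBI against TBI.

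Of the 13 IL-6 response genes, 4 rose in TBI against control and none fell, a share of 30.8% beside 7.25% of all tested probes. This list too was chosen with earlier results of these data known, so its share is no independent test. The median of the list was 0.45 beside -0.01 for all probes. A positive sign was held by 12 of 13 and a negative sign by 1, where 50.7% of all tested probes were negative. Orm1, an acute phase glycoprotein, rose by 1.59 (limma adjusted p = 0.0191), Lbp, which binds bacterial lipopolysaccharide, by 1.31 (limma adjusted p = 0.0275), Hamp, the iron hormone hepcidin, by 1.20 (limma adjusted p = 0.0489) and Cebpb, a transcription factor of the acute phase, by 0.76 (limma adjusted p = 0.0356). With each of the 9 rats left out in turn, the call was kept 6 times for Orm1, 5 times for Lbp and 1 time each for Hamp and Cebpb. The log2 signal of Orm1 was 14.47 to 15.34 in control rats, 16.26 to 16.93 after TBI and 15.81 to 16.67 in HSC + TBI rats. Socs3, a direct feedback target of the IL-6 receptor, had a log2 difference of -0.14 (limma adjusted p = 0.824), and Crp one of 0.16 (limma adjusted p = 0.647). None of the 13 was called in either HSC + TBI comparison.

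Glucocorticoids hold back NF-kB, so 12 genes that they induce were followed too. In TBI against control 3 rose and 3 fell, a share of 50% beside 7.25% of all tested probes. The list was chosen with earlier results of these data known, so this share is no independent test. Sgk1, a serum- and glucocorticoid-induced kinase, rose by 1.56 (limma adjusted p = 0.013), Tat, a liver aminotransferase, by 1.53 (limma adjusted p = 0.0287) and Tsc22d3, which encodes GILZ, by 0.68 (limma adjusted p = 0.0286). Zbtb16 fell by 2.40 (limma adjusted p = 0.0074), Mt2A, a metallothionein, by 1.92 (limma adjusted p = 0.0425) and Fkbp5, a chaperone of the glucocorticoid receptor, by 0.82 (limma adjusted p = 0.0448).

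Zbtb16 was the only called gene of this list in HSC + TBI against TBI, where it was higher by 3.18 (limma adjusted p = 0.0129). Its log2 signal was 6.69, 7.32 and 7.06 in control, 4.86, 5.22 and 3.80 in TBI, and 8.24, 7.64 and 7.52 in HSC + TBI, and no pair of groups overlapped. The calls of Zbtb16 and Sgk1 in TBI against control, and that of Zbtb16 in HSC + TBI against TBI, held whichever rat was left out. Tsc22d3 was also called in HSC + TBI against control, at 0.80 (limma adjusted p = 0.0271). Genes of this list thus moved in both directions, and the list had no single direction after TBI.

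**Figure D4:**
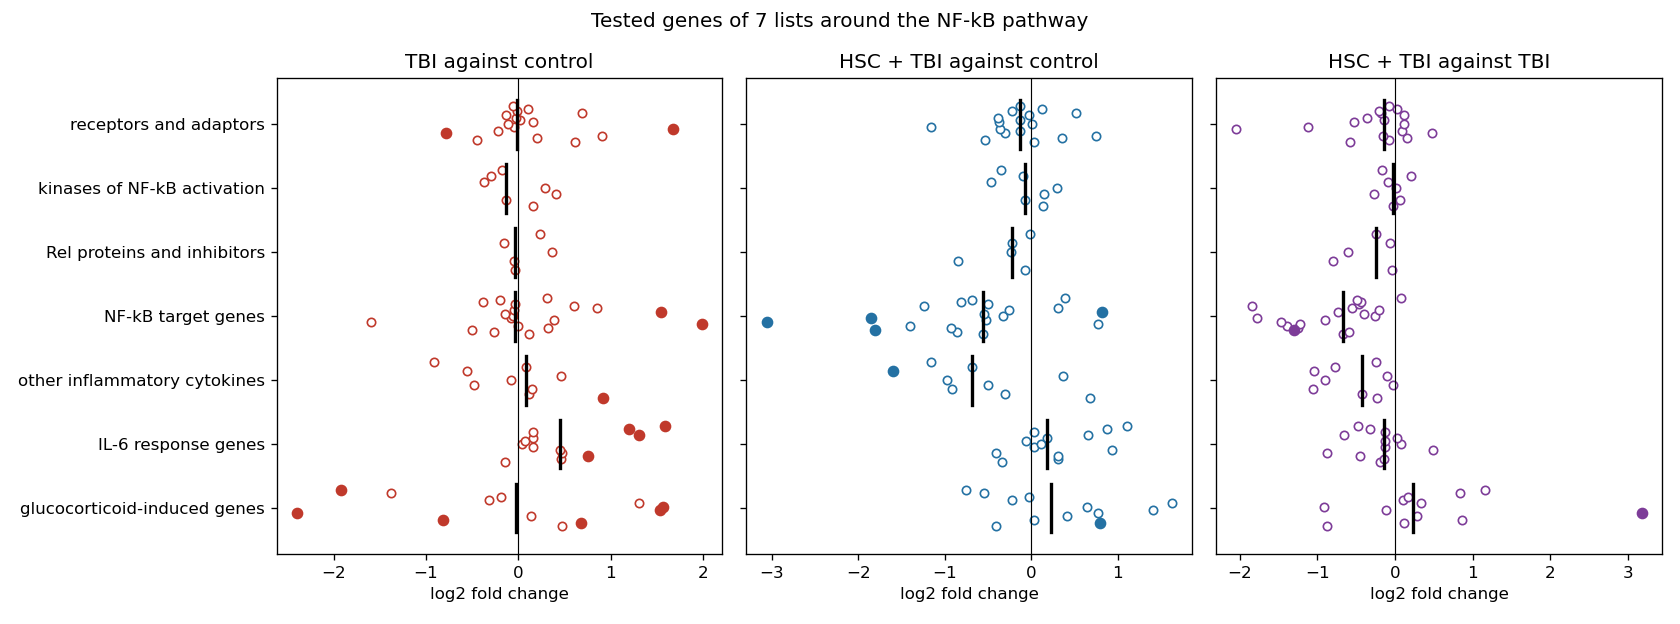
Log2 fold change (horizontal axis) of the tested genes of the 7 lists, 1 point per gene on its brightest probe, in the 3 comparisons. Filled points were called and black bars mark the list medians, which for the NF-kB target genes are -0.04, -0.55 and -0.67 from left to right.

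Whichever rat was left out, 4 of the 15 pathway calls in TBI against control passed (Il6r, Gadd45b, Zbtb16 and Sgk1), 1 of the 6 in HSC + TBI against control (Ccl2) and 1 of the 2 in HSC + TBI against TBI (Zbtb16). Each of the other calls was lost with at least 1 rat left out.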

How the data were processed

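Per the file headers, the authors measured spot intensities with Agilent Feature Extraction 10.7.3.1, and they deposited those intensity files with a table of log2 values normalized by quantiles (scale log2, genes not centred), which served as an alternative. The genome build of the probe design is not given in the sources used here.

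Here the processed intensities of 9 arrays were floored at 1, log2-transformed and quantile-normalized, without control and outlier spots (84 to 115 an array, 0 saturated), and spots of a probe were averaged. They differed from the authors' values by a median of 0.03. A probe was above background where the software's flag was set for over 0.5 of its spots. The 25369 of 41012 probes above background on all arrays of 1 group were tested by lmFit and eBayes in limma 3.58.1 (R 4.3.3), 1 fit of 3 group means, with Benjamini-Hochberg adjustment over all of them. The method was tested on simulated data. Numbered rats were not treated as pairs, since the deviations of same-numbered rats did not all correlate above 0.1 (r = -0.14 to 0.19, against -0.12 to 0.14 for other numbers). Between control and TBI alone, same-numbered rats were more alike (0.097 to 0.191) than other numbers (-0.120 to 0.017). P-values set a difference of group means against the spread between rats within groups, estimated over all 3 groups at once. In control and in TBI this spread lies within 1 slide, so it holds no difference between slides. The number of arrays limits the precision, and an exact two-sided permutation test of 3 against 3 cannot go below 0.1.

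Genes were named through RefSeq (GRCr8), which gave 16968 probes a name. The text names all members, the called genes of each list (at most 6 a comparison), and would name the genes nearest in pattern to called members, of which there were 0. Those nearest to Il1b and Nfkbia, and other genes named as examples, were chosen after their values were seen. Members and lists were chosen with earlier results of these data known. The alternatives were other background corrections, normalizations, filters, tests, probe rules, blocks and each rat left out.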

Additional observations from a re-analysis of the deposited data

How the results depend on the processing

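On its brightest probe, no member gene was called under any alternative except the slide as a random block and the omission of TBI 1. With the slide block, whose estimated correlation within slides was -0.33, 2 member genes were called in TBI against control and 1 in HSC + TBI against TBI, where that block called 17.8% and 8.89% of all tested probes. Each slide held 1 group only, so that block cannot separate slide from group. With each rat left out in turn, the member genes called ran from 0 to 2, 0 to 0 and 0 to 2 for the comparisons taken in turn (TBI with control, HSC + TBI with control, HSC + TBI with TBI), and the pathway genes called from 4 to 12, 1 to 9 and 1 to 15. Beside 15, 6 and 2 pathway genes in the same order, there were 8, 3 and 1 without the filter on dim probes, 8, 10 and 0 with only the 2 groups compared in the fit, and 0, 0 and 0 with the methods' t-test (a pooled-variance test on log2 means) after adjustment. With that t-test unadjusted, 17 were called in HSC + TBI against control and 14 in HSC + TBI against TBI. The slide block gave 24 and 23 in these comparisons, and normexp background correction gave 1 in HSC + TBI against TBI. With the replicate number as a block there were 12, 8 and 3 pathway genes and 0 member genes, and 5 of 9 rats deviated most like a rat of their own number. Between control and TBI the same-numbered rats correlated at 0.191, 0.117 and 0.097, all above the other numbers there (-0.120 to 0.017). With HSC + TBI the same-numbered rats correlated at -0.143 to 0.015, so not every pair passed 0.1 and the numbers were not taken to pair the rats.

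The sign turned only in differences near 0. Rela in HSC + TBI against control became 0.030 with the 75th percentile shift, 0.035 with the mean of its probes, 0.023 without control 3 and 0.034 without HSC + TBI 3, and ran from -0.091 to 0.034 with a rat left out. Nfkb2 in TBI against control became 0.23 with the mean of its probes and 0.042 without TBI 1 (-0.22 to 0.042 with a rat left out), and Tnfrsf1a in HSC + TBI against TBI became -0.035 without TBI 3 (-0.035 to 0.127). The call on the dimmer Nfkb2 probe was kept in 6 of 11 other settings (log2 difference -1.35 to -0.22 over the 11). The 6 include no minimum fold change, which cannot lose a call, the unadjusted t-test, and the slide block, from which no conclusion is drawn. The rest of them were the 75th percentile shift, the authors' normalized values and outlier spots kept. The call was lost with normexp background correction, without the filter on dim probes, with only 2 groups in the fit, with the adjusted t-test and with the replicate block. The cause of these changes was not tested. Scan time coincided with slide and was not run separately.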
